A study of Mus musculus with 6 samples.

Results

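The T cell receptor alpha J segments are short coding stretches, named Traj in the mouse, that lie in a row between the V segments and the constant gene Trac of the alpha chain locus. They were taken here as every row of the deposited table whose symbol is Traj followed by a number, which gave 60 rows of 32801. The rule uses the symbol alone. There is no row numbered 10. RNA was sequenced from thymic regulatory T cells (Treg), CD4+ cells that keep immune responses in check, which were sorted as GFP-negative, CD4+CD8- and Thy1.1+ at an age of 3 weeks. NOD mice, which become diabetic through autoimmunity, gave 3 libraries, and C57BL/6 (B6) mice, whose genome is the mm10 reference, gave the other 3, with age and sort shared by both groups. What GFP and Thy1.1 report is not stated in the labels used here, nor whether either is a transgene, or whether libraries came from single or pooled animals, so p-values measure the spread between these libraries, which may be technical. The question the design gives is how NOD thymic Treg differ from B6 thymic Treg.

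During alpha chain assembly the RAG recombinase joins a V segment to a J segment in thymocytes that carry both CD4 and CD8. The joining starts with J segments at the V-proximal (5′) end of the row and can be repeated, each round replacing the earlier join with a more distant V and a J nearer to Trac. The primary transcript of a joined allele runs from the V promoter through the chosen J segment, then through all J segments that lie downstream, and into Trac. Splicing removes those downstream segments, so total RNA, which holds nuclear transcripts, can carry reads of J segments that were not chosen.

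All 60 segments lie on the plus strand of chromosome 14 between 54155005 and 54218842 (mm10; GENCODE M21 on GRCm38), and J numbers fall toward Trac at 54220521 to 54224206. Every transcript annotated for a segment has 1 exon, and 4 segments (Traj48, Traj49, Traj57 and Traj59) have 2 such transcripts, which differ in length by 1 to 3 bases. The length used is that of the transcript typed as a J segment. GENCODE types 51 as J genes (55 to 66 bases long) and 9 as J pseudogenes (Traj1, Traj8, Traj14, Traj36, Traj51, Traj54, Traj55, Traj60 and Traj61; 29 to 72 bases). A functional J segment encodes a phenylalanine, a glycine, any residue and a glycine, which form a bend of the receptor. That stretch was searched on both strands as TTTGG or TTCGG followed, after 4 bases of any kind, by GGNAC, and the 2 forms cannot overlap in place. It was present in 38 of the 51 J genes and 1 of the 9 pseudogenes, in none on the opposite strand, and in 0.0913% of 32851 promoter windows of 60 bases from RefSeq.

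The 6 segments that passed the test below are shown with the 2 that flank Traj8, because the level of Traj8 is set against theirs further on. Sequences are of the B6 reference, from GENCODE M21 transcripts, 5′ to 3′ on the plus strand, and capitals mark a match to the letters above.
Traj26 (chr14:54194490-54194549): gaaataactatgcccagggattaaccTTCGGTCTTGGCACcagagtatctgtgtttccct
Traj23 (chr14:54196081-54196140): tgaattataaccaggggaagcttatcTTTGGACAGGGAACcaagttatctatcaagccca
Traj9 (chr14:54209393-54209450): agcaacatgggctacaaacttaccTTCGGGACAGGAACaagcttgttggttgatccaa
Traj8 (chr14:54209918-54209954): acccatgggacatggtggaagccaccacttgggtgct
Traj7 (chr14:54211470-54211528): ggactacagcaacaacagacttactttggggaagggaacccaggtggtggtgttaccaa
Traj3 (chr14:54217292-54217357): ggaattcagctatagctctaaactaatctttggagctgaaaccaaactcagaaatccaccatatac
Traj2 (chr14:54217836-54217901): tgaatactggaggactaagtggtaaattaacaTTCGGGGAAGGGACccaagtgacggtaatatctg
Traj1 (chr14:54218814-54218842): gtgtgcagatagctgctccatctttcctg
Of the 6, Traj2, Traj23 and Traj26 hold the letters, and Traj1, Traj3 and Traj8 do not, Traj1 and Traj8 being short pseudogenes of 29 and 37 bases.

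Values are normalized counts: the authors scaled the reads of each library by a size factor and rounded the result. Over the whole table they summed to 16097369 to 17625903 per library. Reads per library were not stated in the labels or the table. A single segment held 0 to 185 normalized counts. Counting error weighs more on low rows, such as those at the 5′ end, but its part in the spread was not measured. Foxp3, which specifies Treg, stood at 1701 to 2446 in all 6 libraries and Cd4 at 5825 to 7952. NOD libraries were aligned to the B6 genome, and a strain difference in RNA therefore cannot be told apart from a strain difference in sequence that changes how reads align. Nor can fewer cells that carry a transcript be told apart from less transcript per cell.

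In both strains levels were low at the V-proximal end of the row and higher toward Trac. For the 22 segments numbered J40 and above the median level was 11 normalized counts in NOD against 13.8 in B6, that of the 20 from J20 to J39 at 36 and 48.3, and that of the 18 numbered J19 and below at 57.5 and 95.5. Per 100 bases of segment the same medians were 17.5 and 23.8, then 58.1 and 78.1, then 98.3 and 174 normalized counts. Across all 60 segments, Spearman's rho between normalized counts and J number was -0.75 to -0.80 in the NOD libraries and -0.88 to -0.90 in the B6 libraries. These are descriptions over rows of shared libraries. The segments at the far 5′ end, Traj57 to Traj61, stood at 0 to 14 normalized counts in every library.

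**Figure D1:**
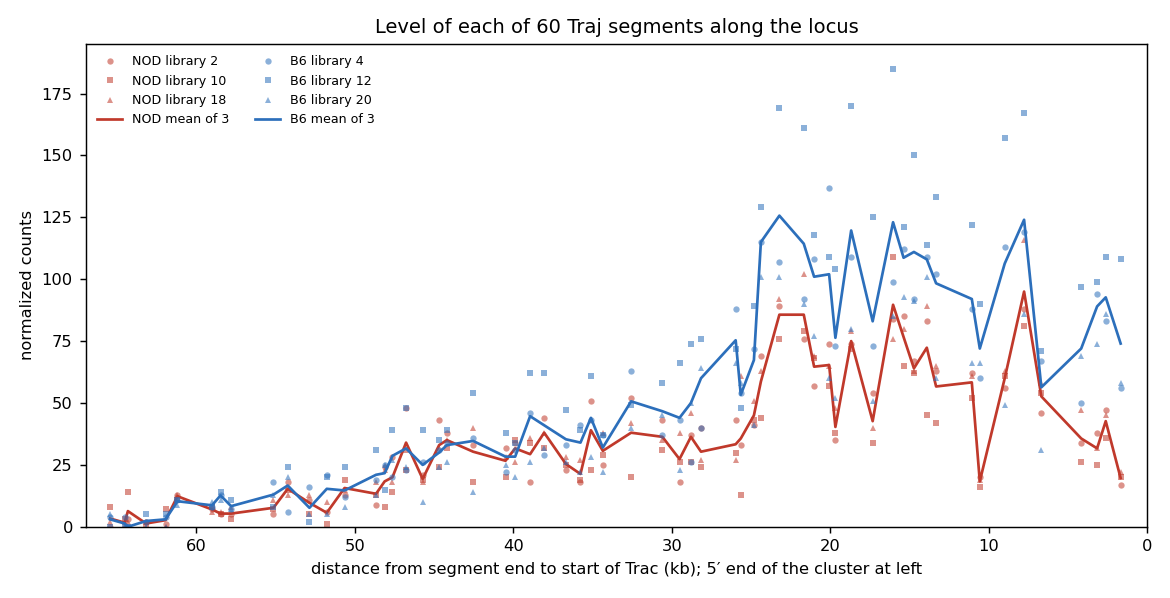
Normalized counts of each of the 60 Traj segments (vertical axis) against the distance in kb from the segment's end to the start of Trac (horizontal axis, V-proximal end at left). Points are the 3 NOD and 3 B6 libraries and lines are strain means. Both lines lie near 0 at the left and the B6 line lies above the NOD line over most of the right side of the plot.

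The segments with the highest means over the 6 libraries were Traj6, Traj15, Traj22, Traj21, Traj17, Traj14, Traj12 and Traj13, all J22 or lower. Traj6 stood at 88, 81 and 116 normalized counts in NOD libraries 2, 10 and 18 and 119, 167 and 86 in B6 libraries 4, 12 and 20. Traj15 stood at 84, 109 and 76 in NOD and 99, 185 and 85 in B6. In both segments the strains overlapped and B6 library 12 was the highest. Traj22 stood at 89, 76 and 92 in NOD and 107, 169 and 101 in B6, without overlap. Per 100 bases Traj14, a pseudogene of 34 bases, was the highest of all, with 226 normalized counts for NOD against 320 for B6. How reads that overlap a segment only in part were counted is not given in the sources used here. None of these 8 segments passed the test between strains (log2 differences of -0.35 to -0.75, limma adjusted p of 0.096 to 0.55).

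Summed over all 60 rows, Traj segments were lower in NOD, at 2203, 1849 and 2303 normalized counts in libraries 2, 10 and 18 against 3103, 4152 and 2471 in B6 libraries 4, 12 and 20. The strain means were 2118 ± 239 and 3242 ± 849 (SD, n = 3 each), a ratio of 0.653, and all 3 NOD libraries lay below all 3 B6 libraries. An exact two-sided permutation test gave p = 0.1, the smallest that 3 libraries against 3 allow. The B6 spread came largely from library 12, which held the highest value of the 6 libraries in 40 of 53 tested segments, and library 20, which held the lowest B6 value in 37. The strain difference was -1124 normalized counts with all libraries and -669 without B6 library 12 (exact permutation p = 0.1). Among the NOD libraries, library 10 stood apart, with the lowest NOD value in 32 of 53 tested segments. Without it the difference in the sum was -989 (exact permutation p = 0.2).

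Trac, the constant gene to which the chosen J segment is spliced, fell as well. It stood at 2617, 2114 and 2342 normalized counts in NOD and 3328, 3348 and 3651 in B6, a log2 difference of -0.55 ± 0.11 (SE, limma adjusted p = 0.0072). The call was lost in a fit without the mean-variance trend (adjusted p = 0.069). The Traj sum per 100 Trac was 84.2, 87.5 and 98.3 in NOD and 93.2, 124 and 67.7 in B6, or 90.0 ± 7.41 against 95.0 ± 28.2, with the NOD libraries inside the B6 range. The exact permutation p was 0.8. Without B6 library 12 the direction turned, to 9.53 per 100 Trac higher in NOD (exact permutation p = 0.5). The lower sum in NOD thus went with a lower Trac, and a difference in the ratio of both was not detectable with these libraries. With the sum of the CD3 chain genes Cd3e, Cd3d, Cd3g and Cd247 in place of Trac, the Traj sum per 100 was 12.8, 11.6 and 14.3 in NOD and 26.0, 33.0 and 16.7 in B6, without overlap (difference -12.3, exact permutation p = 0.1). Of that denominator, Cd3e itself rose in NOD (log2 difference 0.77, limma adjusted p = 0.0022). Cd3g, Cd3d and Cd247 also had differences above 0 (0.403, 0.305 and 0.044) and did not pass (limma adjusted p = 0.055, 0.267 and 0.877). A higher denominator in NOD lowers this ratio by itself.

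**Figure D2:**
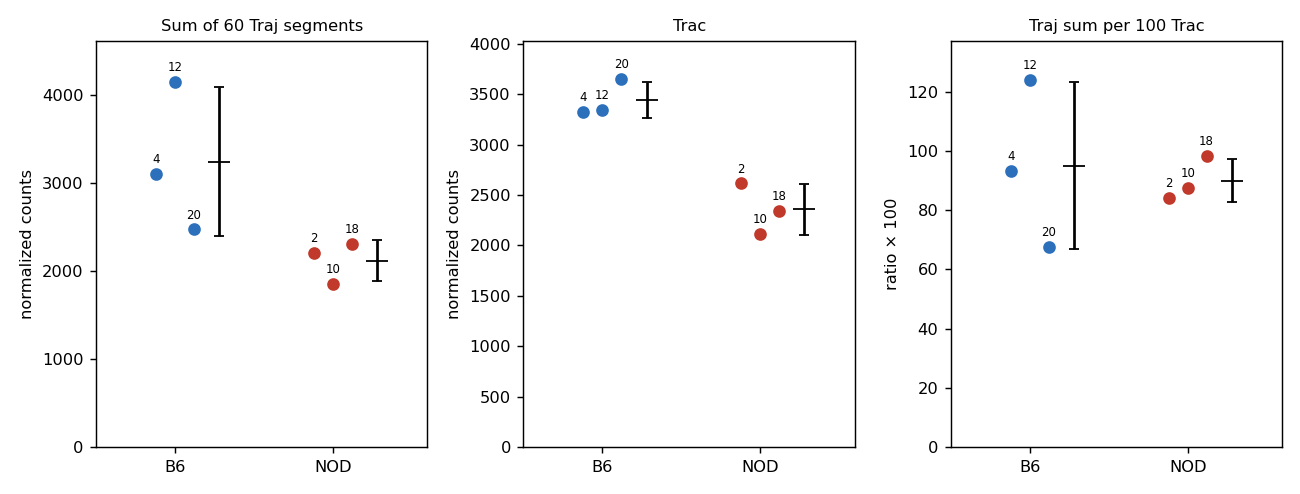
Sum of the 60 Traj segments, Trac, and the Traj sum per 100 Trac in each library (vertical axes; numbers beside the points are library numbers). Bars give the mean and SD of 3 libraries. NOD lies below B6 in the panels for the sum and for Trac, and inside the B6 range in the panel for the ratio.

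The way the sum was spread along the row also differed. Segments numbered J40 and above took 15.1%, 13.9% and 13.8% of the Traj sum in NOD libraries 2, 10 and 18, and 11.0%, 10.4% and 10.4% in B6 libraries 4, 12 and 20. Segments numbered J19 and below took 46.6%, 48.4% and 46.4% in NOD and 52.7%, 53.7% and 50.9% in B6. For both of these blocks no NOD library overlapped a B6 library, and the exact permutation p was 0.1, the smallest possible (0.15 after Benjamini-Hochberg adjustment over the 3 blocks). The middle block, J20 to J39, took 38.6% ± 1.10 in NOD and 37.0% ± 1.54 in B6 (exact permutation p = 0.3, adjusted 0.3), with overlap. These shares do not depend on the size factors, and B6 library 12 did not stand apart in them.

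The 5′ block alone was close between the strains in normalized counts. It summed to 333, 257 and 318 in NOD and 340, 432 and 256 in B6, with overlap (exact permutation p = 0.5). The middle block summed to 819 ± 112 in NOD and 1191 ± 272 in B6, a ratio of 0.688. The 3′ block summed to 997 ± 90.4 and 1708 ± 491, a ratio of 0.583. In the middle and 3′ blocks all NOD libraries lay below all B6 libraries (exact permutation p = 0.1 each). The mean distance from Trac, weighted by each segment's level, was 24292, 24009 and 23867 bases in NOD and 22072, 21630 and 21859 in B6. That is 24056 ± 216 against 21854 ± 221 bases, a difference of 2203 (exact permutation p = 0.1). With the 6 called segments left out, the difference in distance was 1422 bases, and the shares of the 5′ and 3′ blocks still differed by 3.17 and -4.12 percentage points (exact permutation p = 0.1 each).

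**Figure D3:**
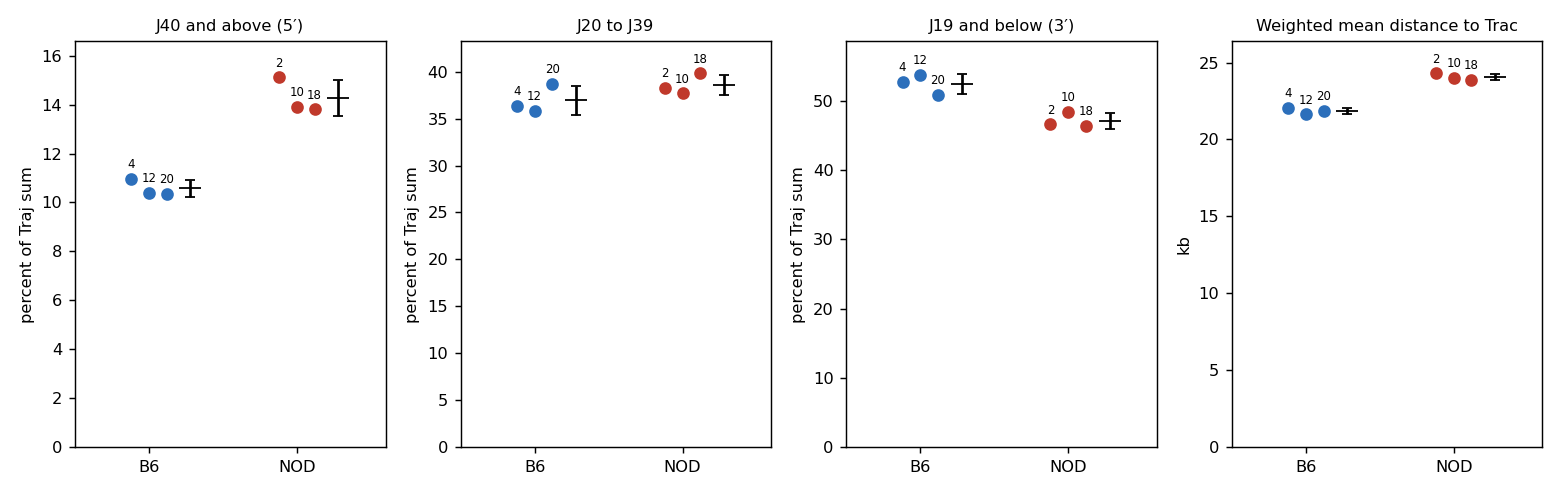
Percent of each library's Traj sum in the 5′, middle and 3′ blocks of segments, and the level-weighted mean distance of the segments from Trac in kb. Points are libraries with their numbers, and bars are the mean and SD of 3. NOD points lie above B6 points for J40 and above and for the distance, and below them for J19 and below.

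Segment by segment, 53 of the 60 reached 10 normalized counts in 3 or more libraries and were tested with limma in a fit over 16442 genes. Traj53, Traj55, Traj57, Traj58, Traj59, Traj60 and Traj61 were too low, and Traj54 entered through its B6 libraries only. Traj54 therefore had to be lower in NOD without overlap, and it is among the 17, 45 and 16 segments counted below. Of the 53, 6 fell in NOD (11.3%) and 0 rose at an adjusted p below 0.05, where 5.3% of all tested genes fell and 4.59% rose. At an unadjusted p below 0.05, 17 were lower and 0 higher, against 10.5% of all genes lower and 9.77% higher. The log2 difference was below 0 in 45 of 53 segments (84.9%, against 48.1% of all genes), with a median of -0.51 against 0.01. All 3 NOD libraries lay below all 3 B6 libraries in 16 segments (30.2%) and above them in 0, against 11.9% and 12.1% of all genes. Neighbouring segments share transcripts, so these counts are not of independent rows.

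By block, 4 of the 18 tested segments numbered J19 and below fell (22.2%), 2 of 20 from J20 to J39 (10%) and 0 of 15 from J40 up. Of all tested genes 5.3% fell, and with so few rows in a block these counts are a description only. The median log2 differences were -0.70, -0.50 and -0.07. The log2 difference was below 0 in 18 of 18, 19 of 20 and 8 of 15. The last, 53.3%, is near the 48.1% of all genes. Across the 53 segments Spearman's rho was 0.51 between the log2 difference and the distance from Trac, and 0.17 between the log2 difference and the segment's length. Levels were also higher nearer Trac, and rho between the log2 difference and the mean level was -0.36; the part of level in the pattern was not tested.

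**Figure D4:**
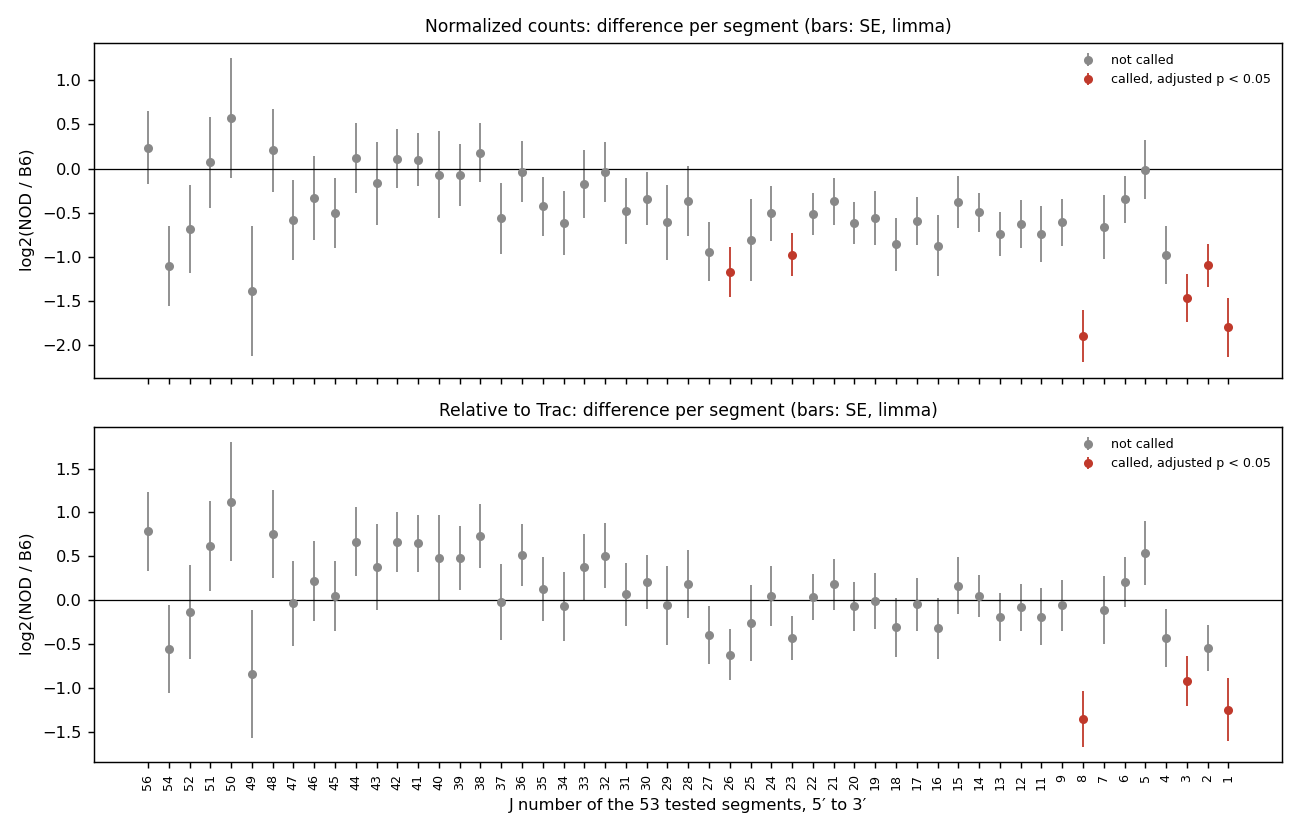
Log2 difference NOD against B6 of each of the 53 tested segments, ordered 5′ to 3′ by J number, for normalized counts (top) and relative to Trac (bottom). Points are limma estimates, bars are SE, and red marks an adjusted p below 0.05. The 6 red points of the top panel are J26, J23, J8, J3, J2 and J1, and those of the bottom panel are J8, J3 and J1.

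Traj8, a pseudogene, differed most. It stood at 20, 16 and 19 normalized counts in NOD libraries 2, 10 and 18 and at 60, 90 and 66 in B6 libraries 4, 12 and 20. The groups lay far apart, with a log2 difference of -1.90 ± 0.30 (SE, limma adjusted p = 0.0015). Its neighbour on the V side, Traj9, stood at 62, 52 and 61 in NOD and 88, 122 and 66 in B6, and its neighbour on the Trac side, Traj7, at 56, 61 and 63 against 113, 157 and 49. Neither neighbour passed (adjusted p = 0.23 and 0.37). Traj8 thus reached 30.9% ± 2.80 of the mean of its 2 neighbours in NOD and 79.7% ± 30.5 in B6, without overlap (exact permutation p = 0.1). Of 49 segments compared with their neighbours in this way, 3 were without overlap lower in NOD (Traj3, Traj8 and Traj49) and 5 higher (Traj2, Traj9, Traj17, Traj44 and Traj48). With only 20 ways to split the 6 libraries, some of 49 ratios separate without a strain difference, so these counts are a description only. Traj49 rests on 1 to 21 normalized counts. Segments next to each other are not independent here, since Traj8 enters the ratio of Traj9, and Traj1 and Traj3 that of Traj2.

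The 3 segments nearest to Trac were all lower in NOD. Traj1, a pseudogene, stood at 17, 20 and 22 normalized counts in NOD and 56, 108 and 58 in B6, a log2 difference of -1.80 ± 0.33 (SE, limma adjusted p = 0.0045). Traj2 stood at 47, 36 and 45 against 83, 109 and 86 (-1.10 ± 0.25, adjusted p = 0.015). Traj3 stood at 38, 25 and 32 against 94, 99 and 74 (-1.47 ± 0.27, adjusted p = 0.0045). No NOD library reached a B6 library in any of them. Traj4, the next segment, stood at 34, 26 and 47 against 50, 97 and 69 and did not pass (-0.98 ± 0.33, adjusted p = 0.097). Traj5 broke the run, at 46, 54 and 58 in NOD and 67, 71 and 31 in B6, with a log2 difference of -0.01 and a 95% interval from -0.75 to 0.72.

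Farther from Trac, Traj23 stood at 69, 44 and 63 normalized counts in NOD and 115, 129 and 101 in B6 (log2 difference -0.98 ± 0.24, SE, limma adjusted p = 0.026). Traj26 stood at 43, 30 and 27 against 88, 72 and 66 (-1.17 ± 0.28, adjusted p = 0.022). Both were without overlap. These 2 calls were the least stable. Traj23 was lost without NOD library 10 or 18 or B6 library 4 or 12 (adjusted p of 0.055 to 0.10), and Traj26 without NOD library 18 or B6 library 4 or 12 (0.064 to 0.11). Traj2 was lost without B6 library 12 (0.072), while Traj1, Traj3 and Traj8 kept their calls with any single library left out (adjusted p of 0.0037 to 0.031). The number of segments that fell was 3 without B6 library 12 and 10 without B6 library 20. Over all genes 598 and 778 fell in these fits, against 871 with all libraries.

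Relative to Trac, each segment's log2 value minus that of Trac in the same library was fitted over all genes. Traj8 (-1.35 ± 0.32, SE, limma adjusted p = 0.0048), Traj1 (-1.25 ± 0.36, adjusted p = 0.013) and Traj3 (-0.92 ± 0.28, adjusted p = 0.017) were lower in NOD by more than Trac was. No other segment passed in either direction, where 2.85% of all genes were lower and 48.9% higher, since Trac itself fell. These were also the only 3 segments with an unadjusted p below 0.05, where 3.3% of all genes were lower and 56% higher. Traj2 (-0.55 ± 0.26, adjusted p = 0.095), Traj26 (-0.62 ± 0.29, adjusted p = 0.092) and Traj23 (-0.43 ± 0.25, adjusted p = 0.16) did not pass. The median over the 53 segments was 0.04, against 0.56 over all tested genes. By block it was -0.15 for J19 and below, 0.05 for J20 to J39 and 0.48 for J40 and above. The 0.48 is therefore no rise beyond that of all genes. Without B6 library 12 only Traj8 passed (the calls of Traj1 and Traj3 were lost at adjusted p = 0.071 and 0.067), and without B6 library 4 Traj3 was lost (adjusted p = 0.066).

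Among segments that did not pass the test in normalized counts, Traj50 had the highest log2 difference, 0.57 ± 0.68 (11, 5 and 13 in NOD, 16, 2 and 5 in B6). It turned to -0.01 without B6 library 12. Traj49 had the lowest, -1.39 ± 0.74 (6, 1 and 10 against 21, 20 and 5), and both overlapped between strains. Traj18, the J segment of the invariant receptor of natural killer T cells, stood at 35, 38 and 48 in NOD and 73, 104 and 52 in B6, without overlap (-0.86 ± 0.30, limma adjusted p = 0.12). Traj33, the J segment of mucosal-associated invariant T cells, stood at 51, 23 and 43 against 43, 61 and 28, with overlap (-0.18 ± 0.39, adjusted p = 0.87). Traj59, which GENCODE types as a J gene near the 5′ end, stood at 3, 14 and 2 in NOD and was listed at 0 in all 3 B6 libraries. It was below the level needed for the test.

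The authors' deposited table gives an adjusted p below 0.05 for 11 segments lower and 1 higher in NOD. The share of all genes that the authors' fit calls was not computed here, so whether these counts exceed it is not known. The 6 segments called here are among the 11, and the others lower in the authors' deposited table are Traj4, Traj13, Traj16, Traj18 and Traj27. The segment it gives as higher is Traj59, with a log2 fold change of 5.13 ± 1.62 (SE) in the authors' deposited table (adjusted p = 0.019). For Traj8 the authors' deposited table gives -1.96 ± 0.31 (adjusted p = 1.33e-08). That table's mean for Traj1 is 65.4, against 46.8 over the 6 columns used here, so its fit does not rest on these columns alone.

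Other rows of the receptor loci moved in different ways. The sum of 106 alpha V rows was 1212 ± 176 in NOD and 1850 ± 89.0 in B6, a ratio of 0.655 beside 0.653 for the Traj sum. Row by row, 22 of 56 tested alpha V segments fell (39.3%) and 2 rose, where 5.3% of all genes fell and 4.59% rose, with log2 differences from -5.86 to 2.54 and a median of -0.16. A row can pass the filter through the libraries of a single strain, and its direction is then fixed. How many of the 22 and 2 did so was not counted, so these counts are a description only. The Traj sum per 100 alpha V counts was 176 ± 17.6 against 177 ± 52.0 (exact permutation p = 1), and the sign of that difference turned when B6 library 12 or NOD library 2 was left out. The 14 beta J rows, the same kind of segment in the beta chain locus, summed to 983, 1027 and 1099 in NOD and 1002, 814 and 1087 in B6, and 0 of the 12 tested passed with limma (0 at an unadjusted p below 0.05). The Traj sum per 100 beta J counts was 224, 180 and 210 in NOD and 310, 510 and 227 in B6, without overlap (exact permutation p = 0.1, adjusted 0.2 over these 2 ratios). The difference was -144 with all libraries, -63.9 without B6 library 12 and -109 without the 6 called segments (exact permutation p = 0.3 for the last). Of 7 genes of the receptor complex 1 fell and 1 rose, beside the 5.3% and 4.59% of all genes: Trac, and Cd3e, the CD3 chain named above. Trbc1 and Trbc2, the beta constant genes, had log2 differences of 0.11 and 0.25 and did not pass.

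Genes downstream of Trac also included lower members. Of 8 tested, 3 fell and 0 rose, where 5.3% of all genes fell. Dad1, the next gene after Trac and a subunit of the oligosaccharyltransferase, stood at 897, 1056 and 786 normalized counts in NOD and 1296, 1446 and 1313 in B6 (log2 difference -0.57, limma adjusted p = 0.014). Abhd4, a lipid hydrolase (log2 difference -0.58, adjusted p = 0.034), and Mmp14, a membrane metalloproteinase (-1.34, adjusted p = 0.0005), were the other two. The call of Dad1 was lost without NOD library 2 or 18 or B6 library 12, or without the trend (adjusted p of 0.052 to 0.09). That of Abhd4 was lost without NOD library 2 or 18 or B6 library 12 or 20, or without the trend (0.096 to 0.13).

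Of 15 tested genes of V(D)J recombination and end joining, 1 fell (6.67%) and 0 rose, a share near the 5.3% of all tested genes that fell, so the count is no result about the list. The 1 that fell, Rag1, a RAG recombinase subunit, stood at 49, 55 and 67 normalized counts in NOD and 155, 100 and 111 in B6 (log2 difference -1.07, limma adjusted p = 0.017). It did not pass when NOD library 2 (adjusted p = 0.066) or B6 library 4 (0.099) was left out. Dntt, the polymerase that adds bases at joins, stood at 8, 11 and 17 against 34, 25 and 25 and did not pass (adjusted p = 0.095). Of 17 factors of the alpha locus enhancer and its folding, 1 fell (5.88%, again near the share of all genes) and 0 rose. That gene was Myb, which binds the enhancer (-0.88, adjusted p = 0.012, lost without B6 library 12 or 20 and without the trend, at 0.053 to 0.098). The marker lists that follow are short, and 5.3% of all tested genes fell and 4.59% rose. Of 8 tested markers of CD4+CD8+ thymocytes, in which the alpha locus rearranges, Rag1 fell and Cd8a rose, from 10, 17 and 18 in B6 to 124, 35 and 100 in NOD (2.31, adjusted p = 0.0075, or 0.051 without NOD library 18). Without overlap between strains, 3 of the 8 were lower in NOD (Rag1, Dntt and Arpp21) and 1 higher (Cd8a), where 11.9% of all genes were lower and 12.1% higher. Arpp21 stood at 20, 5 and 16 in NOD and 30, 33 and 24 in B6 and did not pass (limma adjusted p = 0.19). Rag2 stood at 0 to 9 and Ptcra at 0 or 1 in every library, and the 10 markers together summed to 2447 to 2970 normalized counts in NOD and 2193 to 2458 in B6. Cd1d1 and Themis made up most of that sum, with means of 1290 and 872 in NOD and 1063 and 840 in B6. The 5 Treg markers summed to 100573 to 111581 and 96131 to 109141, with 0 of 5 called by limma (1 higher and 1 lower at an unadjusted p below 0.05). Of 4 tested markers of gamma-delta T cells 2 rose, Sox13 and Tcrg-C4, both of which entered the test through their NOD libraries only (13 to 21 normalized counts, against 0 to 5 in B6) and had to differ there, so the count is a description only. The list had a summed level of 66 to 108 in NOD and 44 to 66 in B6. Of 6 tested markers of dendritic and myeloid cells 2 fell, Cd74 and H2-Aa, and 0 rose. Cst3 of the same list went the other way without overlap, at 705, 982 and 606 in NOD and 529, 522 and 585 in B6, and did not pass (limma adjusted p = 0.14). The other 3 tested overlapped between strains. The whole list summed to 1176 to 1424 in NOD and 1468 to 1727 in B6, mostly from Cd74 and Cst3, which moved in opposite directions. The 5 B cell markers summed to 136 to 196 and 144 to 193, with 0 of 2 tested called by limma (0 at an unadjusted p below 0.05). The part of any of these cells in the Traj values was not tested.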

How the data were processed

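Total RNA was made into libraries with an Illumina TruSeq total RNA kit, per the labels' protocols. The authors used Trimmomatic, STAR, DESeq2 and mm10, per the submitters' processing notes; which counter, annotation and strand setting they used is not given in the sources used here, so how a read that spans a J segment and Trac was counted is unknown. The 6 deposited sample columns hold normalized counts (scores), which are rounded and are marked norm in the file headers. The table is described as read counts divided by size factors. The deposited table also holds the authors' log2 fold change with its standard error, p-values, adjusted p-values, a mean and a test statistic (scores). Columns were matched to strain by name, and 0 sample columns were left unused.

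Genes that reached 10 normalized counts in 3 or more libraries (in 2 or more for fits without a library) were tested with limma 3.58.1 in R 4.3.3 on log2(value + 1) with a trend, two-sided, with Benjamini-Hochberg adjustment over all tested genes and a threshold of 0.05. Fold changes are on that scale, which understates changes of low rows. The fit relative to Trac left Trac itself out, and its p-values share the error of Trac. Sums, ratios and shares were tested with exact two-sided permutations of the 6 libraries. The programs were tested on simulated data. No 2 replicates agreed within sampling noise (chi-square per gene 9.67 to 70.2), and NOD library 10 differed most from its group (59.5 and 70.2, against 9.67 for the other NOD pair). Alternatives were other pseudocounts, filters and scalings, no trend and each library left out. Named rows are all called segments, the 8 with the highest mean, the extremes not called, Trac and called context genes; other names, the comparison with neighbouring segments and the weighted distance were chosen after values were seen. The members and lists were chosen with earlier results of these data known. Coordinates and sequences come from GENCODE M21, in which all 60 symbols matched.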

Additional observations from a re-analysis of the deposited data

How the results depend on the processing

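No paired analysis was possible because the columns carry library numbers that match no replicate number of the labels, and no label pairs a NOD library with a B6 library, so no replicate block was fitted. With each library left out, the number of segments that fell ran from 3 to 10 (6 with all libraries), with 0 that rose, and relative to Trac 1 to 3 fell. Over all genes 490 to 781 were higher and 569 to 1011 lower, against 755 and 871. The lowest counts over all genes came without NOD library 18 (490) and without B6 library 4 (569). The strain difference in the Traj sum ran from -1509 to -669 normalized counts, and that in the sum per 100 Trac from -18.6 to 9.53, turning sign without B6 library 12. It also turned, to 1.51, when the 6 called segments were left out, an alternative added after the data were seen. Single libraries left out moved the difference in the Traj sum per 100 alpha V counts from -25.8 to 26.2 (8.26 without NOD library 2), and that per 100 beta J counts from -205 to -63.9, also added then. The first was 10.5 without the 6 called segments. The differences of the 5′, middle and 3′ block shares ran from 3.28 to 3.93, 1.01 to 2.50 and -6.10 to -4.68 percentage points. Without a filter 1 segment rose relative to Trac (Traj59, adjusted p = 0.0036, limma). Traj59 stood at 3, 14 and 2 in NOD and at 0 in every B6 library, so it could only rise and its call is a description only. Without the trend 2 segments rose relative to Trac (Traj41 and Traj56, limma adjusted p = 0.047 and 0.021). The share of all genes higher relative to Trac was not counted in either setting, and was 48.9% in the main fit. Without the trend Traj54 also became a further lower call in normalized counts (0.0079) and Traj2 in the fit relative to Trac (0.047). Traj54 entered the test through its B6 libraries only and had to be lower in NOD, so its call is a description only. Rescaling by trimmed means, pseudocounts of 0.5 and 5 and a minimum of 30 left 6 segments lower and 0 higher, and 3 lower relative to Trac. With a minimum of 30 only 39 segments were tested. With single libraries left out the log2 difference of Traj50 ran from -0.0105 (without B6 library 12) to 1.24. With 3 libraries a strain, no permutation p can fall below 0.1.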
